A study of Rattus norvegicus with 6 samples.

Results

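The miR-29 family was followed through the first days of differentiation of rat oligodendrocyte precursors. It was taken as every probe on the array whose name starts with rno-miR-29a-, rno-miR-29b- or rno-miR-29c-, both arms of the precursor included, which gave 7 of the 761 rat miRNA probes. Of these, 3 are for the 3p arms (rno-miR-29a-3p, rno-miR-29b-3p and rno-miR-29c-3p) and 4 for the 5p arms (miR-29a-5p, miR-29b-5p, miR-29b-1-5p and miR-29c-5p). The RNA was total RNA of precursors grown in culture, which mature into the oligodendrocytes that form myelin. The 3 samples titled DIV0 were kept in Raff medium in the normal condition. The 3 samples titled DIV3 had had their growth factors changed so that they would differentiate. The titles were read as days 0 and 3 in culture, so time and growth condition cannot be told apart, and no strain, genotype or age is given for the cells. Every sample had an array of its own, read in the Cy5 channel alone. Whether the replicates are separate cultures is not stated, and the p-values therefore cover only the spread among these 6 samples, which may be technical.

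A miRNA is cut from a hairpin precursor that can yield a strand from its 5′ side (5p) and one from its 3′ side (3p), and it lowers target mRNAs that pair with its seed, a short stretch near the 5′ end. The miR-29 family is known from other mammalian tissues for targeting collagens and other matrix genes and the DNA methyltransferases DNMT3A and DNMT3B. In the brain it has been described as rising with the maturation of neurons and as abundant in astrocytes.

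The 3p sequences are shown because they carry the shared seed and the few bases by which the probes' targets differ. All 7 probe names matched a mature sequence of RefSeq (rat assembly GRCr8). Sequences are written 5′ to 3′, and capitals mark the seed, bases 2 to 8.
miR-29a-3p: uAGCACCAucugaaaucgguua
miR-29b-3p: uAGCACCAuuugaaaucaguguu
miR-29c-3p: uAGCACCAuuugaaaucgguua

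The seed of the 3p arms was shared by 3 of the 693 mature rat miRNA names in the table, and these were the 3 family members. Counted from base 1 at the 5′ end, miR-29c-3p differed from miR-29a-3p by a single substitution, C10U, and matched it at 21 of 22 positions. Against miR-29c-3p, miR-29b-3p had G18A, U21G and A22U and 1 extra base at its 3′ end. Probes for sequences this close can bind each other's target, and how far these probes tell the members apart was not tested. The spots of miR-29a-3p and miR-29b-3p also lie next to each other on the array, in columns 9 and 10 of block 30.

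The 5p arms are shown to contrast with this, since none of their seeds recurs.
miR-29a-5p: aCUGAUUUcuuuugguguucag
miR-29b-1-5p: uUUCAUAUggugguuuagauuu
miR-29b-5p: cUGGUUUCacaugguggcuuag
miR-29c-5p: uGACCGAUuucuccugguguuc

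Each 5p seed belonged to 1 of the 693 names. The family lies in 4 hairpins at a pair of loci in GRCr8, with coordinates from RefSeq and not from the array files. On the minus strand, Mir29a (chr4:60617955-60618042) lies 291 bases from Mir29b1 (chr4:60618334-60618414). On the plus strand, Mir29b2 (chr13:109098831-109098911) lies 447 bases from Mir29c (chr13:109099359-109099446). Both of these hairpins overlap in position with the lncRNA gene LOC102550527, whose strand was not compared. The mature miR-29b-3p of Mir29b1 and that of Mir29b2 have the same sequence, so its probe reads both loci together. The 5p arms do separate them, with miR-29b-1-5p coming from Mir29b1 and miR-29b-5p from Mir29b2.

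Levels are given as log2 of the spot intensity after background correction on the blank spots, with 50 units added, and quantile normalization across arrays. The level of one probe cannot be set against that of another on this scale, so only changes of a probe between arrays are compared. The arrays differed in brightness: the median miRNA spot lay 25.5 to 44.7 intensity units above the blank spots on 5 arrays, but 5.87 units above them on the DIV0 array of replicate 3. A miRNA was called detected on an array where its spot exceeded the blank mean by 2 SD, and testing with limma took in the 695 miRNAs that 3 or more of the 6 arrays detected. The replicate numbers of the titles were taken to pair the samples, since arrays of equal number deviated together. The arrays of replicate 1 shared a slide, as did those of replicate 2, but those of replicate 3 lay on different slides. Slide and sample thus cannot be told apart in replicates 1 and 2, nor slide and condition in replicate 3. The DIV0 array came first and the DIV3 array second in position, and this order cannot be told apart from the condition.

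Of the 3p arms, miR-29a-3p was 1.49-fold lower in DIV3, in the same direction in all 3 pairs. miR-29b-3p and miR-29c-3p were 1.17-fold and 1.18-fold lower. All 3 were higher instead under median scaling of the log2 values. Where linear intensities were scaled to an equal median, all 3 stayed lower. The log2 differences were -0.43, -0.14 and -0.070 in the deposited values, and -0.52, -0.23 and -0.15 after subtraction of the blank mean. No member passed the threshold of an adjusted p of 0.05. In such bulk RNA, fewer cells of a type and less miRNA per cell cannot be told apart. Of the 7 members, 6 were detected on enough arrays to be tested, and 0 of the 6 were called by limma with Benjamini-Hochberg adjustment, with 1 (miR-29a-3p) at an unadjusted p under 0.05. Over all 695 tested miRNAs, 14 were called (2.01%), of which 6 were lower in DIV3 (0.863%). No miRNA was called lower with median or 75th percentile scaling, an offset of 16, the local background or the deposited values. An unadjusted p under 0.05 was found for 102 (14.7%). With the replicate number as a block, 26 miRNAs were called (3.74%) and again 0 of the 6 members. The differences of the tested members had a median of -0.19, 5 of 6 being negative, beside a median of -0.0060 and 53.4% negative among all tested miRNAs.

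**Figure D1:**
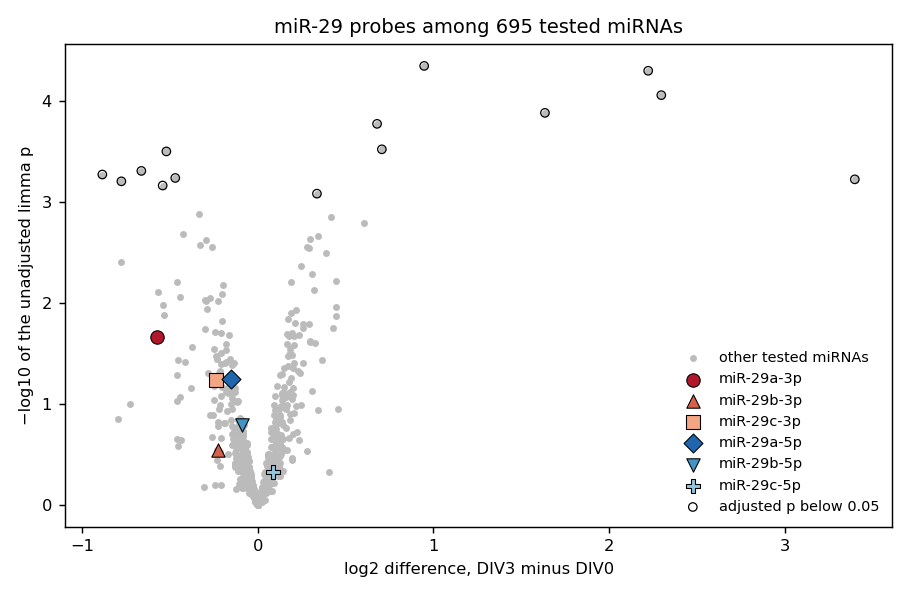
Log2 difference between DIV3 and DIV0 (horizontal axis, log2 units) against the -log10 of the unadjusted limma p (vertical axis) for 695 tested miRNAs, with the 6 tested miR-29 probes as large symbols and the 14 called miRNAs ringed. miR-29a-3p lies at -0.57, away from the other members, and no member is ringed. The sign of the 3p members changes under median scaling of the log2 values, but not with the deposited values.

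miR-29a-3p is the member of the minus-strand cluster next to Mir29b1. On the DIV0 arrays of replicates 1, 2 and 3 its normalized log2 level was 10.46, 9.69 and 9.91. On the DIV3 arrays of the same numbers it was 9.51, 9.51 and 9.33. All DIV0 arrays were thus above all DIV3 arrays, with the DIV0 array of replicate 1 the highest. The DIV3 arrays lay close together (9.45 ± 0.10, SD, n = 3), and the DIV0 arrays further apart (10.02 ± 0.39, SD, n = 3). The difference of -0.57 ± 0.19 (SE, 95% interval -1.03 to -0.11) had a limma adjusted p of 0.236, and of 0.104 with the replicate block. Of all tested miRNAs, 1.01% had a difference this low or lower, miR-29a-3p included.

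The size of the miR-29a-3p difference varied between pairs. DIV3 minus DIV0 was -0.95 in replicate 1, -0.19 in replicate 2 and -0.58 in replicate 3. Without the DIV0 array of replicate 1 the difference was -0.35 (limma adjusted p = 0.168). With the replicate block and both arrays numbered 2 left out it was -0.77 and passed the threshold (limma adjusted p = 0.000157), where 41 miRNAs were called. That fit dropped the pair with the smallest fall. With so few arrays left, its p rested mostly on the variance that limma shares across miRNAs, so it is weak evidence. Only under median scaling of each array did the sign of the miR-29a-3p difference change, to 0.11. Relative to the shift of the median miRNA it was 0.098 higher under median and 75th percentile scaling alike. These scalings differ only by a constant per array.

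In the deposited values, which are linear intensities with a median of 25 on every array, miR-29a-3p stood at 1203, 549 and 563 on the DIV0 arrays. It stood at 635, 515 and 462 on the DIV3 arrays. The DIV3 array was the lower one in every pair, but the DIV3 value of replicate 1 exceeded the DIV0 values of replicates 2 and 3, so the groups overlapped there. The means were 772 ± 374 and 537 ± 88.6 (SD, n = 3 each) with the DIV0 array of replicate 1 far above the other 5. In these values 0 of the 6 tested members had groups that did not overlap, beside 16 of 538 miRNAs with a value on all arrays that were lower in DIV3 without overlap (2.97%).

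**Figure D2:**
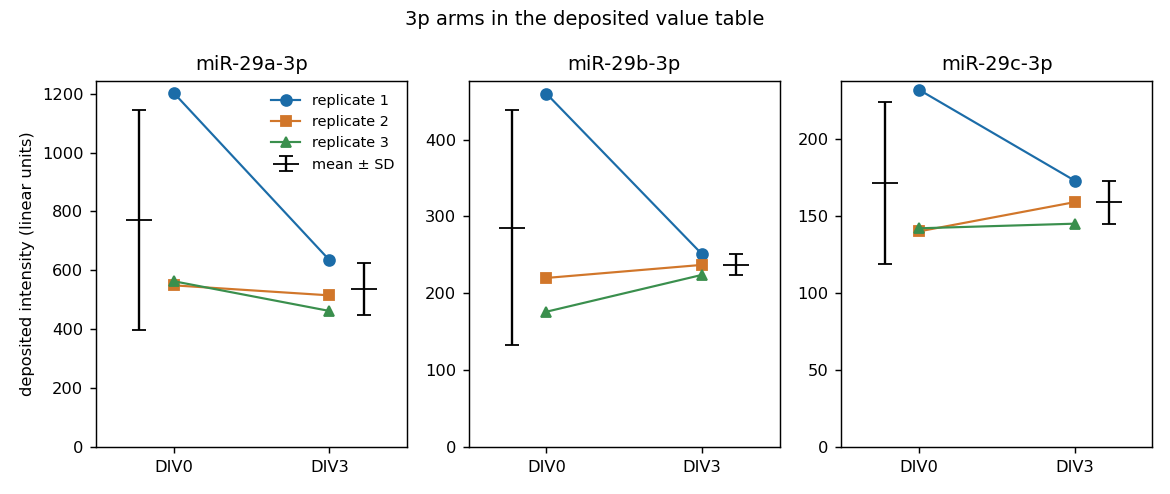
Deposited linear intensity (vertical axis, arbitrary units, from 0) of the 3p arms in DIV0 and DIV3, with lines joining arrays of equal replicate number and black bars for the mean ± SD (n = 3). The DIV0 array of replicate 1 is the highest for each probe, at 1203, 460 and 232, and the other arrays lie close together. Of the 3 pairs, DIV3 is lower in 3 for miR-29a-3p and in 1 each for miR-29b-3p and miR-29c-3p.

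miR-29b-3p, which 2 loci produce, had log2 levels of 9.09, 8.51 and 8.31 on the DIV0 arrays. On the DIV3 arrays it had 8.34, 8.49 and 8.42. The DIV0 array of replicate 1 was the highest and the DIV0 array of replicate 3 the lowest of all, so the groups overlapped. The difference was -0.22 ± 0.19 (SE, n = 3 per group, limma adjusted p = 0.705), made up of -0.75, -0.025 and 0.10 in the 3 pairs. Without the DIV0 array of replicate 1 it was 0.0026. The interval from -0.69 to 0.24 holds changes in either direction.

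miR-29c-3p, which differs from miR-29a-3p by C10U alone, had log2 levels of 8.36, 8.03 and 8.06 on the DIV0 arrays. The DIV3 arrays gave 7.91, 7.9999 and 7.84. The groups did not overlap, and the lowest DIV0 array and the highest DIV3 array, both of replicate 2, were only 0.028 apart. The difference was -0.24 ± 0.10 (SE, limma adjusted p = 0.375), and the pairs gave -0.46, -0.028 and -0.22. Its deposited values of 232, 140 and 142 in DIV0 and 173, 159 and 145 in DIV3 overlapped, with DIV3 the higher array in replicates 2 and 3. Its sign also changed with the local background in place of the blank spots (0.27) and with 75th percentile scaling (0.032), and without the DIV0 array of replicate 1 it was -0.13. With the replicate block and both arrays numbered 2 left out, it was -0.34 and just passed the threshold (limma adjusted p = 0.0486). As for miR-29a-3p, that fit dropped the pair with the smallest fall and rested mostly on the variance shared across miRNAs.

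**Figure D3:**
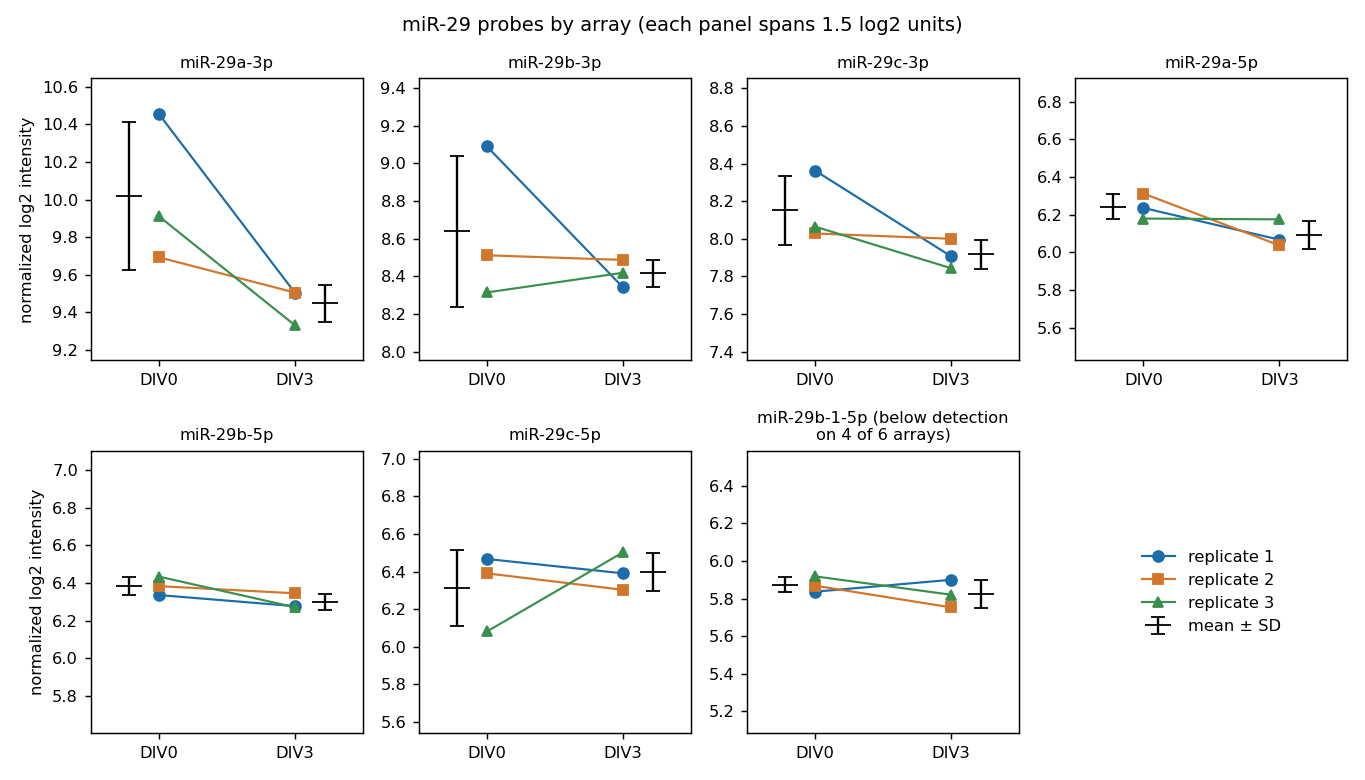
Normalized log2 intensity (vertical axis) of each miR-29 probe in DIV0 and DIV3, with lines joining arrays of equal replicate number and black bars for the mean ± SD (n = 3). Every panel spans the same range of log2 units. miR-29a-3p is lower in DIV3 in 3 of 3 pairs without overlap of the groups, whereas the lines of miR-29b-3p and miR-29c-5p run in both directions. Under median scaling of the log2 values the 3p differences are positive.

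The 5p arms, the strands from the other side of the hairpins, were dim. miR-29a-5p was detected on 6 of 6 arrays at 4.04 to 9.15 blank SD above the blanks. Its log2 levels were 6.24, 6.31 and 6.18 in DIV0 and 6.07, 6.04 and 6.18 in DIV3. The groups touched without overlapping, being 0.0041 apart in replicate 3, and the difference was -0.15 ± 0.065 (SE, limma adjusted p = 0.370). Its deposited values were 19, 21 and 14 in DIV0 and 14, 11 and 14 in DIV3. At such intensities the added 50 units make up most of the value, so the log2 scale understates any change.

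miR-29b-5p, the strand that marks Mir29b2, had deposited values of 23, 23 and 23 in DIV0 and 23, 22 and 18 in DIV3. Its log2 difference was -0.087 ± 0.055 (SE, limma adjusted p = 0.589), with overlapping groups. miR-29c-5p, from the neighbouring hairpin, stood at 31, 23 and 12 in DIV0 and 29, 21 and 27 in DIV3 in the deposited values. Its difference was positive at 0.086 ± 0.11 (SE, limma adjusted p = 0.799), and it was -0.030 without the dim DIV0 array of replicate 3, where its lowest value lay. miR-29b-1-5p, the only strand here that marks Mir29b1, was detected on 2 of 6 arrays, those of replicate 1, at deposited values of 5 and 8, and was not tested. The data therefore gave no comparison between the loci of miR-29b.

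Taking the tested members together, 3 of 6 (miR-29a-3p, miR-29c-3p and miR-29a-5p) were lower in DIV3 with groups that did not overlap, beside 61 of the 695 tested miRNAs (8.78%). For miR-29c-3p and miR-29a-5p this rested on gaps of 0.028 and 0.0041 log2 units. The members are not independent, since their probes are close in sequence or their strands share a hairpin.

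Whether the members changed to different extents was asked within each array, where a log2 shift common to all its probes cancels. A factor common to the spot intensities need not cancel between probes of different brightness. The offset was added before the log2 step, and quantile normalization followed. The log2 difference of miR-29a-3p minus miR-29b-3p was 1.37, 1.18 and 1.60 on the DIV0 arrays and 1.17, 1.02 and 0.91 on the DIV3 arrays. All DIV0 values were above all DIV3 values, and the mean difference between conditions was -0.35 (exact permutation p = 0.1, two-sided, the smallest that 3 against 3 arrays can give, and 0.3 after Benjamini-Hochberg adjustment over 6 pairs of probes). miR-29a-3p minus miR-29c-3p was 2.09, 1.67 and 1.85 in DIV0 and 1.60, 1.51 and 1.49 in DIV3. Here too the groups did not overlap, with a mean difference of -0.34 (exact permutation p = 0.1, adjusted 0.3). The miR-29a-3p signal thus stood lower in DIV3 relative to those of both other 3p members in 3 of 3 pairs, which a test of this size cannot place under 0.05.

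The comparison of miR-29b-3p with miR-29c-3p gave 0.73, 0.48 and 0.25 in DIV0 and 0.43, 0.49 and 0.58 in DIV3. These overlapped, and the mean difference was 0.012 (exact permutation p = 0.9). In log2 of the deposited values, miR-29a-3p minus miR-29c-3p again separated the groups, with a difference of -0.36 (exact permutation p = 0.1), while miR-29a-3p minus miR-29b-3p did not (-0.29, p = 0.2). Both differences involving miR-29a-3p were negative under all 15 alternatives run. Over the 8 alternatives of background and normalization the groups were apart in 3 for miR-29b-3p as partner and in 5 for miR-29c-3p. Both counts hold median and 75th percentile scaling separately, although these are the same calculation here, since a constant per array cancels.

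**Figure D4:**
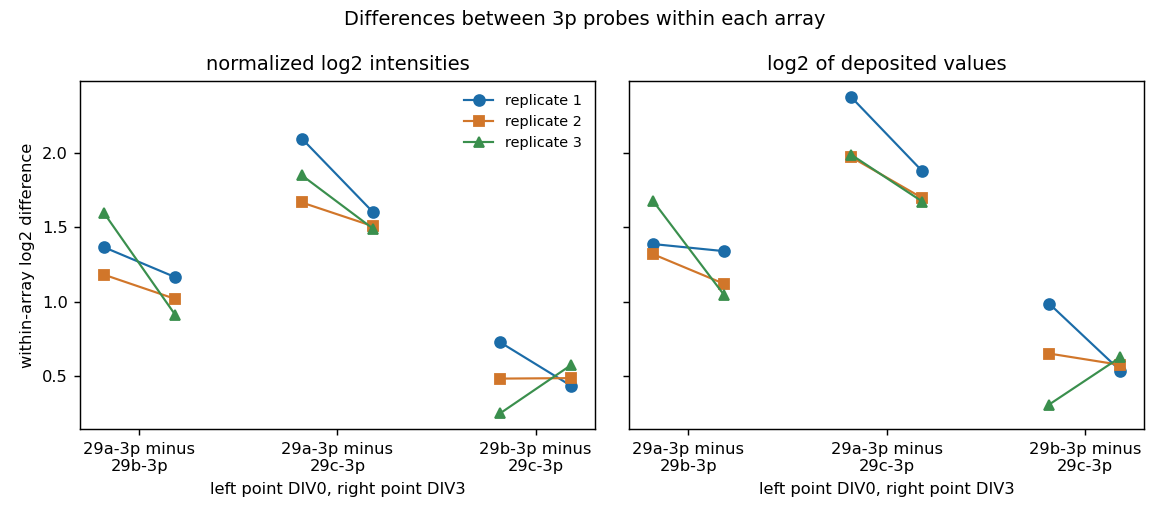
Within-array log2 difference between 3p probes (vertical axis, log2 units) in normalized values (left panel) and in deposited values (right panel). For each pair of probes, lines join the DIV0 and DIV3 arrays of equal replicate number. The lines for miR-29a-3p minus miR-29b-3p and minus miR-29c-3p fall in 3 of 3 replicates in both panels, and those for miR-29b-3p minus miR-29c-3p run in both directions.

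Each 3p arm was also compared with the 5p arm of its own name. The difference of changes was -0.42 for miR-29a (exact permutation p = 0.3), -0.14 for miR-29b (p = 0.9) and -0.32 for miR-29c (p = 0.2), and in each case the groups overlapped. The sign was not stable: under scaling by the median or the 75th percentile the values were 0.34, 0.32 and 0.26. With 5p spots this dim, and 3 arrays against 3, a difference between the arms was not detectable. Without the DIV0 array of replicate 1 the value was -0.20 for miR-29a and 0.11 for miR-29b. With no background correction the miR-29a groups did not overlap (-0.45, exact permutation p = 0.1).

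Across the 6 arrays, miR-29a-3p and miR-29c-3p varied together most closely (Pearson r = 0.975), with miR-29b-3p at 0.868 against miR-29c-3p and 0.801 against miR-29a-3p. These values describe 6 arrays, on which the DIV0 array of replicate 1 was the highest for all 3 probes. The arms of a hairpin varied together less, with r = 0.457 for miR-29a, -0.0452 for miR-29b with miR-29b-5p, and -0.0197 for miR-29c.

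Among 687 other tested miRNAs, those whose levels followed the mean of the 3p members most closely over the 6 arrays were miR-331-5p (r = 0.953), miR-503-5p (0.912), miR-652-3p (0.899), miR-298-5p (0.881) and miR-15b-5p (0.872). Their differences between conditions ran from -0.22 for miR-503-5p to -0.051 for miR-331-5p, and none was called. The lowest correlations were those of miR-370-5p (-0.956), miR-9a-3p (-0.947) and miR-375-5p (-0.947). These are the extremes of 687 correlations over 6 arrays, and the lowest is as far from 0 as the highest. Several rest on levels that hardly varied, the whole range over the arrays being 0.13 log2 units for miR-331-5p, 0.15 for miR-298-5p and for miR-370-5p, and under 0.001 for miR-9a-3p and miR-375-5p. The widest range was the 0.61 of miR-503-5p.

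RefSeq also places a miRNA gene on the opposite strand of 3 of the 4 hairpins, and each has a probe on the array. They were singled out after their values were seen, and are shown because each is an exact reverse complement of part of a 3p arm.
miR-3556a: cgauuucagauggugcua
miR-3587: aacacugauuucaaauggugc
miR-3556b: accgauuucaaauggugcua

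miR-3556a (chr4:60617972-60617989, plus strand) is the complement of bases 1 to 18 of miR-29a-3p. miR-3587 (chr4:60618342-60618362, plus strand) is the complement of bases 3 to 23 of miR-29b-3p, and miR-3556b (chr13:109099412-109099431, minus strand) of bases 1 to 20 of miR-29c-3p. The opposite-strand probes lay 0.053 to 5.31 blank SD above the blanks, being detected on 4, 3 and 3 of the 6 arrays in the order of the sequences shown. Their log2 differences were 0.096 (limma adjusted p = 0.621), 0.022 (0.948) and -0.080 (0.683), so none was called.

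A pair of lists of miRNAs known for the same target groups were set beside the family. Over all 695 tested miRNAs, 14 were called (2.01%), 6 of them lower in DIV3 (0.863%). With the replicate block it was 26 (3.74%), 14 of them lower. Whether the counts of such short lists differ from these shares was not tested. Among 10 miRNAs known to target DNA methyltransferases, other DNA methylation genes or their cofactors, such as the miR-148 family and the miR-101 family, 10 of 10 were tested and 0 rose or fell. Their median difference was 0.12, and the smallest p-values belonged to miR-148b-3p (0.20 ± 0.080, SE, limma adjusted p = 0.323) and miR-26b-5p (0.24 ± 0.099, adjusted p = 0.340). Among 15 miRNAs known from matrix and fibrosis research 0 rose and 1 fell, with a median of -0.0077. The one that fell was miR-21-5p, a miRNA linked to fibrosis and growth, with a difference of -0.78 ± 0.13 (SE, limma adjusted p = 0.0365). Its deposited values were 3429, 2688 and 2387 in DIV0 and 1653, 1738 and 1777 in DIV3, so the groups did not overlap. Its call ended with the deposited values, an offset of 16, either one-factor scaling and the local background, under which no miRNA was called lower. With the replicate block 2 of the 15 fell, the second being miR-24-3p (-0.44, limma adjusted p = 0.0323 with the block and 0.440 without).

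Markers of the labelled cell type moved between the conditions. Of the oligodendrocyte differentiation list 5 of 5 rose, with a median difference of 2.22, beside 8 of all 695 tested miRNAs called higher. These 5 are not independent, since miR-338-3p and miR-338-5p, like miR-219a-5p and miR-219a-2-3p, are named as arms of one miRNA. Arms of these names outside the list ran both ways, with 0.21 for miR-138-1-3p, -0.26 for miR-138-2-3p and -0.13 for miR-219a-1-3p. None of those was called. The list was chosen with earlier results of these data known. It was led by miR-219a-5p at 3.40 ± 0.54 (SE, limma adjusted p = 0.0365), a miRNA known to promote oligodendrocyte differentiation. No miRNA was called, these included, with the deposited values or slide as a fixed block. The same held without the DIV0 array of replicate 3 or without any 1 DIV3 array. Markers of other cells did not pass the test without the block: 0 of 5 neuronal, 0 of 5 microglial and blood, 0 of 7 endothelial, mural and fibroblast, and 0 of 3 astrocyte miRNAs, the last including miR-29a-3p itself. Beside this, 14 of all 695 tested miRNAs were called (2.01%). The summed deposited levels ran from 393 to 456 in DIV0 and 323 to 474 in DIV3 for neurons and from 280 to 1054 and 291 to 775 for microglia and blood. With the replicate block 1 of the 5 microglial and blood miRNAs was called lower in DIV3, beside 14 of all 695 tested miRNAs. It was the myeloid miRNA miR-223-3p (-0.45, limma adjusted p = 0.0381 with the block and 0.690 without). Its deposited values were 130, 266 and 84 in DIV0 and 81, 190 and 76 in DIV3, lower in 3 of 3 pairs with overlapping groups. The block changed no count of the other marker lists. For endothelial, mural and fibroblast markers the summed deposited levels ran from 182 to 338 and 178 to 357, and for the 2 astrocyte miRNAs other than miR-29a-3p from 39 to 138 and 55 to 309. The other astrocyte miRNAs had no lower level past the test: miR-449a-5p had 0.40 ± 0.53 (SE, limma adjusted p = 0.796) and miR-143-3p -0.095 ± 0.21 (SE, adjusted p = 0.902). miR-143-3p also stands in the endothelial, mural and fibroblast list and in the DNA methylation list. Its deposited values were only 26, 13 and 29 in DIV0 and 18, 9 and 34 in DIV3, so most of the astrocyte sum was miR-449a-5p. The part of other cells in the miR-29a-3p difference was not tested.

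How the 3p differences moved with the processing is shown by all alternatives side by side. For miR-29a-3p 22 of 23 alternatives gave a negative difference, for miR-29b-3p and miR-29c-3p 20 of 23 each. These tallies are not counts of separate checks. Slide as a fixed block and the block without number 3 are the same fit. The filters, the intensity trend and the replicate block on all arrays cannot change the difference itself.

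**Figure D5:**
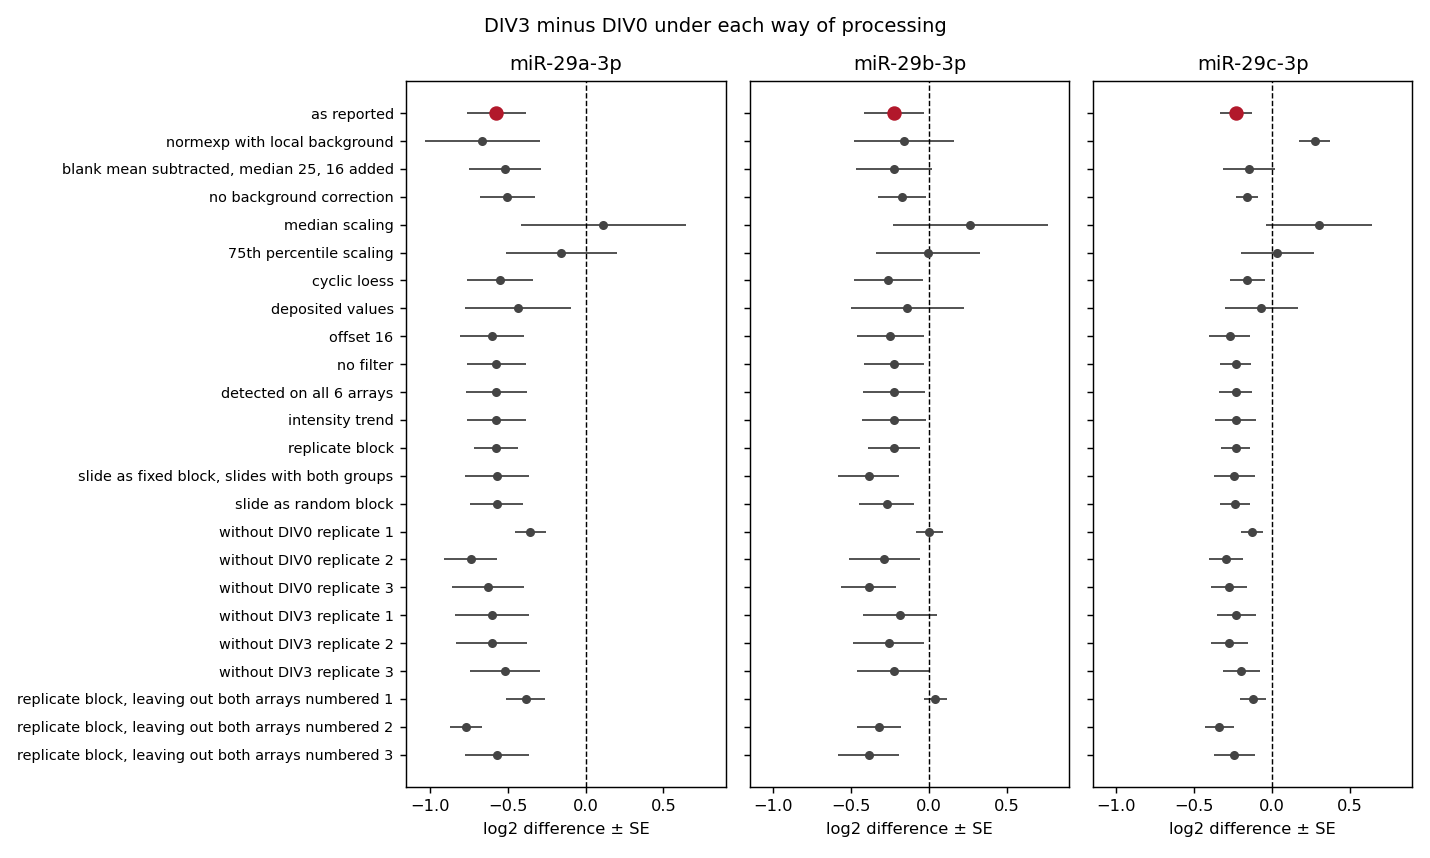
Log2 difference between DIV3 and DIV0 (horizontal axis, log2 units, bars for the SE) of the 3p members as reported (large point at the top) and under 23 alternatives (vertical axis). miR-29a-3p runs from -0.77 to 0.11, miR-29b-3p from -0.39 to 0.27 and miR-29c-3p from -0.34 to 0.30, with the highest values under median scaling.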

How the data were processed

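Total RNA of 6 samples was labelled with Cy5 and hybridised to 1 array each, per the labels' protocols. The labels name an amplification kit made for mRNA, without saying how it served for miRNA. The scanner files deposited by the authors hold the median intensity of 3200 spots and of their surroundings, not normalized and joined from scans at 3 gains, per the file headers. They include 761 rat miRNA probes and 1664 blanks. A second deposited table holds linear intensity values that follow the spot intensity linearly, with residuals up to 0.522 units, scaled to a median of 25 on each array, uncentred, and missing where a spot was not detected.

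The median intensities were background-corrected by limma 3.58.1 (R 4.3.3; normexp, blank spots, offset 50), then logged (log2) and quantile-normalized using miRNA probes only, with 1 flagged spot (miR-489-5p, DIV0 replicate 1) left out. The local background followed the spot itself (log correlations 0.939 to 0.982) and served only as an alternative. Detection and the filter on dim probes (blank mean after trimming 5% at each end, plus 2 SD, on at least 3 of 6 arrays) are those given above. The 3 DIV3 and 3 DIV0 arrays were compared by lmFit and eBayes, two-sided, adjusted over 695 miRNAs. Changes of probes were compared by an exact permutation test of within-array differences. The number of arrays limits the precision.

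Arrays of equal replicate number deviated together from their group means (correlations of 0.37, 0.54 and 0.47), so equal numbers were treated as pairs. Whether slide or sample made them deviate together was not tested. The members and lists were chosen with earlier results of these data known. The naming rule took all members, the 5 miRNAs most and 3 least correlated with the 3p mean, and up to 4 of each list by smallest p. Of the planned comparisons of arms, miR-29b-3p against miR-29b-1-5p was left out after its values were seen, because miR-29b-1-5p was detected on 2 arrays. Alternatives changed background, normalization, offset, filter, block, slide, values used and arrays. The limma fit was tested on simulated normalized values, and the permutation test on a constructed example. Background correction, normalization, the detection filter and the pairing were not simulated.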

Additional observations from a re-analysis of the deposited data

How the results depend on the processing

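The adjusted p of no tested member passed the threshold under any alternative, except those of miR-29a-3p (-0.77) and miR-29c-3p (-0.34) with the replicate block and both arrays numbered 2 left out. For both members that fit dropped the pair with the smallest fall. The replicate block alone left the value of miR-29a-3p at -0.57 and changed no member's call. Leaving out 1 array gave -0.74 to -0.35 for miR-29a-3p, -0.39 to 0.0026 for miR-29b-3p, -0.30 to -0.13 for miR-29c-3p and -0.030 to 0.16 for miR-29c-5p. Signs turned under median scaling for miR-29a-3p (0.11), miR-29b-3p (0.27) and miR-29c-3p (0.30). 75th percentile scaling moved the median of all miRNAs to -0.25. It and median scaling each shift an array by a constant, so relative to that median they give identical values by construction. These were positive for all 3 (0.098, 0.25 and 0.29) and are not a separate check. The sign of miR-29c-3p also turned with the local background (0.27) and 75th percentile scaling (0.032), and that of miR-29b-3p without the DIV0 array of replicate 1 (0.0026) or with the block without number 1 (0.040). miR-29c-5p turned to -0.23 with 75th percentile scaling and to -0.030 without the DIV0 array of replicate 3. It turned to -0.082 with slide as a fixed block, which is the same fit as the block without number 3. These causes were not tested.

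For the differences of changes, median and 75th percentile scaling are the same calculation. It gave -0.15 for miR-29a-3p against miR-29b-3p and 0.34 for miR-29a-3p against miR-29a-5p. It gave 0.32 for miR-29b-3p against miR-29b-5p and 0.26 for miR-29c-3p against miR-29c-5p. With the local background miR-29a-3p against miR-29c-3p was -0.94, miR-29b-3p against miR-29c-3p -0.43 and miR-29c-3p against miR-29c-5p 0.22. With the deposited values miR-29a-3p against miR-29a-5p was 0.025.

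The count of called miRNAs, 14 as reported (8 higher, 6 lower), was 1 with the local background, 4 with median or 75th percentile scaling, 6 with an offset of 16 (all of these higher), 26 with the replicate block, 29 with slide as a random block, and 0 with slide as a fixed block (87 at an unadjusted p under 0.05) or with the deposited values (55 unadjusted). Leaving out 1 array gave 0 to 13, with 7 without the DIV0 array of replicate 2 and 0 without that of replicate 3 or without any 1 DIV3 array (72 to 80 unadjusted). With the block and without both arrays numbered 1, 2 or 3 it was 1, 41 and 0, the last being the same fit as slide as a fixed block. The dim DIV0 array of replicate 3 and the 5p signals close to the blanks limit what these arrays can resolve.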
